A study of Homo sapiens with 6 samples.

Results

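The genes described here encode 10 secreted matrix proteins: the matricellular proteins SPARC, THBS1, THBS2, TGFBI and POSTN, the small leucine-rich proteoglycans BGN, DCN and LUM, and the fibril-forming glycoproteins FN1 and FBN1. They were taken by symbol from the deposited table of counts, and all 10 were found among its 61541 genes. Bulk RNA-seq had been made from MDA231-LN cells (3 libraries) and from parental MDA-MB-231 cells (3 libraries). MDA231-LN is MDA-MB-231-D3H2LN, known as a luciferase-carrying subline isolated from a metastatic lymph node of a mouse, and parental MDA-MB-231 is a triple-negative human breast cancer line. Both were grown in high-glucose medium with 10% serum. Each kind of cell is represented by 1 line, so lymph node origin cannot be told apart from any other difference between the lines. The title of the series places the comparison in a study of JAGGED-1 and spread to lymph nodes.

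Matricellular proteins are secreted into the matrix, where they bind structural proteins, growth factors and cell receptors rather than bearing load. Small leucine-rich proteoglycans carry sugar chains on a core of leucine-rich repeats and bind collagen fibrils, while fibronectin and fibrillin-1 assemble into fibrils and microfibrils outside the cell. In breast tumors these proteins are known mainly as products of stromal fibroblasts, and some carcinoma cells with mesenchymal features make them as well.

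Of the 10 genes, 6 were higher in MDA231-LN, 1 was lower and 3 had too few counts to be tested. SPARC, at about 1 CPM in parental cells, was 37.2-fold higher in MDA231-LN, and THBS2, near the limit of detection in parental cells, was 58.8-fold higher. TGFBI, FN1 and THBS1, already abundant in parental cells, rose 3.33-fold, 2.53-fold and 1.96-fold. LUM appeared at a low level in MDA231-LN, and FBN1 fell 1.36-fold. POSTN, DCN and BGN stood at or near 0 in both lines. A gene is called higher or lower at a Benjamini-Hochberg adjusted p under 0.05 in edgeR's quasi-likelihood test over all 14176 genes that passed a filter on low counts. Over all of these, 62.8% were called, 31.6% higher and 31.2% lower. At least 2-fold, 13% were called higher and 7.53% lower, beside 5 and 0 of the 7 tested genes. Of these 5, THBS2 and LUM reached the filter through MDA231-LN alone and so could hardly have been called lower. The 10 genes were chosen with earlier results of these data known, so the shares are not a test of the set. The libraries of the lines did not overlap for any of the 7 tested genes; over all tested genes every MDA231-LN library was above every parental library for 33.8% and below for 32.8%. In such bulk samples, fewer cells that express a gene and less RNA per cell cannot be told apart. Log2 fold changes are MDA231-LN over parental, ± is the SD over 3 libraries for expression levels and the SE for log2 fold changes, and CPM is the usual depth-scaled count, here on TMM-scaled library sizes.

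The libraries held 17661542 to 18882719 counted fragments in MDA231-LN and 16461578 to 19171017 in parental cells. Genes with at least 1 count numbered 19839 to 20024 in MDA231-LN libraries and 17962 to 18196 in parental libraries. More genes were thus detected in every MDA231-LN library, so a gain from few or no parental counts is not particular to the genes named here. The lines separated on the first principal component of log2 CPM, which carried 86.5% of the variance. Library pairs of 1 line differed beyond sampling noise (chi-square per degree of freedom 3.73 to 8.47, against 84.1 to 98.4 between lines), so none was counted as a repeat of another. The labels do not state whether a line's libraries were separate cultures. The p-values therefore measure library-to-library spread, part or all of which may be technical. All 7 listed markers of a mesenchymal basal-like line were expressed in both lines, with a summed level of 5795 to 6082 CPM in MDA231-LN and 4121 to 4280 CPM in parental cells. Of these 7, VIM, CD44, AXL, FOSL1 and CAV1 rose, by 1.89-fold at most, while EGFR fell 1.93-fold and ZEB1 fell 1.52-fold. CDH1, the epithelial cadherin, averaged 0.420 CPM in MDA231-LN and 0.212 CPM in parental cells, and was not tested.

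**Figure D1:**
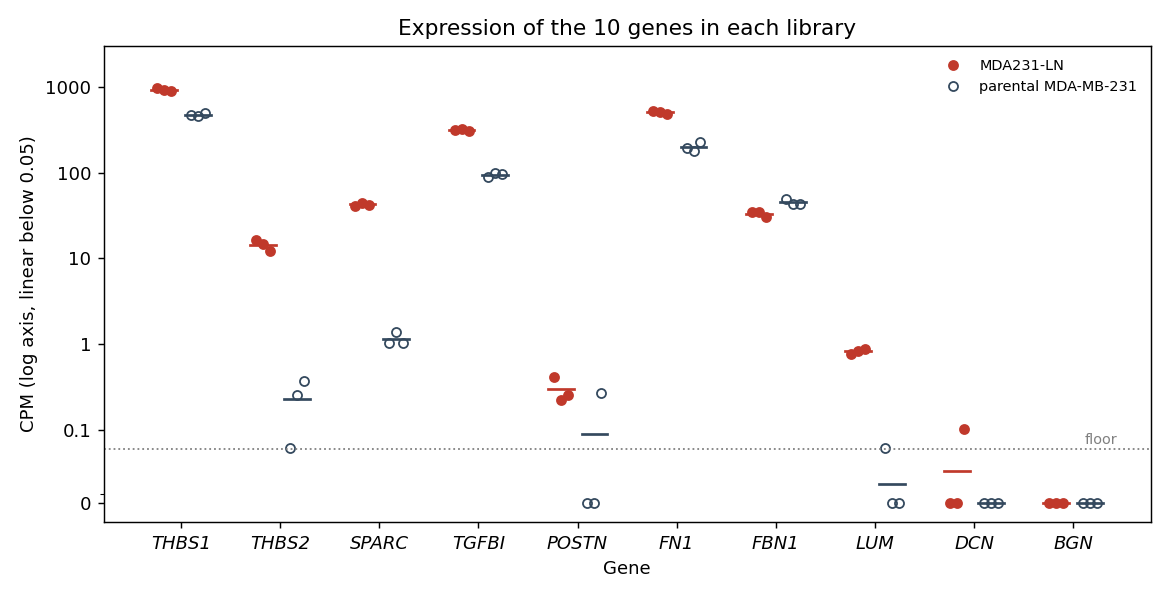
CPM of each of the 10 genes in each library (points; bars are means of 3 libraries) in MDA231-LN and parental MDA-MB-231, on an axis that is logarithmic above 0.05 and linear below. The dotted line is the floor of 3 counts over the 3 parental libraries (0.0590 CPM). The lines do not overlap for any of the 7 tested genes, and BGN is at 0 in every library.

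SPARC encodes osteonectin, a collagen- and calcium-binding glycoprotein. It lies on chromosome 5 from 151661096 to 151686975 of GRCh38, on the minus strand (ENSG00000113140). It had 41.1, 44.7 and 42.4 CPM in the MDA231-LN libraries, against 1.04, 1.39 and 1.02 CPM in the parental libraries. The spread within each line was small beside the gap between them. The log2 fold change was 5.22 ± 0.15, or 37.2-fold (edgeR quasi-likelihood, adjusted p = 2.43e-20), and it ranked 259 from the highest of the 14176 tested genes. These values rest on 2432 fragments in MDA231-LN and 58 in parental cells. Of SPARC's exonic bases, 14.3% lie inside CLMAT3, an antisense gene with 5 to 8 counts per MDA231-LN library and 1 to 7 per parental library; fragments that touch more than 1 gene were not counted.

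THBS1 and THBS2 encode thrombospondin-1 and thrombospondin-2, trimeric glycoproteins that inhibit angiogenesis, and thrombospondin-1 is also known to activate latent TGF-beta. THBS2 lies on chromosome 6 from 169215780 to 169254050 (ENSG00000186340). It had 16.1, 14.5 and 12.1 CPM in MDA231-LN libraries, against 0.0609, 0.254 and 0.375 CPM in parental libraries, which is 813 fragments against 12. Even the lowest MDA231-LN library stood far above the highest parental library. Its log2 fold change was 5.88 ± 0.30 (58.8-fold; edgeR quasi-likelihood, adjusted p = 3.20e-15). No parental library reached the filter on low counts for THBS2, so the gene entered the test through MDA231-LN alone. THBS1, on chromosome 15 from 39581079 to 39599466 (ENSG00000137801), was already abundant in parental cells. It had 972, 913 and 893 CPM in MDA231-LN libraries, against 472, 455 and 492 CPM in parental libraries, and rose by less than THBS2 (log2 fold change 0.97 ± 0.05; edgeR quasi-likelihood, adjusted p = 1.09e-14).

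Both thrombospondin genes were counted over a small part of their exons. Of the exonic bases of THBS1, 79.2% lie inside FSIP1, a gene on the opposite strand, and of those of THBS2, 80.7% lie inside the antisense gene THBS2-AS1. The counts were made without regard to strand, and fragments in the shared part were left out, so 1909 exonic bases of THBS1 and 1240 of THBS2 could gather counts. FSIP1 itself had 9, 14 and 14 counts in MDA231-LN libraries, against 6, 3 and 9 in parental libraries. THBS2-AS1 had 8, 22 and 25 counts in MDA231-LN libraries, against 5, 7 and 10 in parental libraries. Whether the uncounted exons followed the counted ones was not tested.

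TGFBI encodes a secreted adhesion protein of the fasciclin family that is named for its induction by TGF-beta. It lies on chromosome 5 from 136028988 to 136063818 (ENSG00000120708), with no exonic base inside another gene. It had 316, 321 and 308 CPM in MDA231-LN libraries, against 88.8, 98.0 and 96.9 CPM in parental libraries. The libraries of each line lay close together, with a wide gap between the lines. The log2 fold change was 1.74 ± 0.06 (edgeR quasi-likelihood, adjusted p = 5.14e-19). POSTN encodes periostin, of the same family, and had few counts in both lines. It had 8, 4 and 5 counts in MDA231-LN libraries, against 0, 0 and 5 in parental libraries, so the lines overlapped. The ratio of summed counts was 3.03, with an exact 95% interval of 1.07 to 10.5 that covers counting error only. POSTN did not reach the filter, and with no filter it did not pass (edgeR quasi-likelihood, adjusted p = 0.329).

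FN1 encodes fibronectin, the adhesive glycoprotein on which many other matrix fibrils are built. It lies on chromosome 2 from 215360440 to 215436073 (ENSG00000115414), also with no exonic base inside another gene. FN1 had 520, 515 and 482 CPM in MDA231-LN libraries, against 195, 180 and 225 CPM in parental libraries. Parental libraries varied more than MDA231-LN libraries relative to their mean, without overlap. The log2 fold change was 1.34 ± 0.06 (edgeR quasi-likelihood, adjusted p = 1.25e-15). FBN1 encodes fibrillin-1, the main protein of extracellular microfibrils, and lies on chromosome 15 from 48408313 to 48645721 (ENSG00000166147). It had 34.9, 35.0 and 29.96 CPM in MDA231-LN libraries, against 49.5, 43.0 and 43.5 CPM in parental libraries. The highest MDA231-LN library was below the lowest parental library. FBN1 thus fell, with a log2 fold change of -0.45 ± 0.09 (edgeR quasi-likelihood, adjusted p = 0.000101), and was the only one of the 7 tested genes to do so. The fall was small: against a difference of 1.5-fold (edgeR glmTreat) FBN1 was not called.

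The small proteoglycans were hardly expressed. LUM, which encodes lumican, a regulator of collagen fibril thickness, lies on chromosome 12 from 91102629 to 91111494. LUM had 15, 15 and 17 counts in MDA231-LN libraries, against 1, 0 and 0 in parental libraries. The ratio of counts was 41.9, with an exact 95% interval of 7.17 to 1691, and LUM passed the test (log2 fold change 4.96 ± 0.92; edgeR quasi-likelihood, adjusted p = 4.13e-05). Like THBS2, LUM reached the filter through MDA231-LN alone, at 0.768, 0.832 and 0.874 CPM in the libraries of that line. DCN encodes decorin, a collagen- and TGF-beta-binding proteoglycan, and is the neighbour of LUM on chromosome 12 (91140484 to 91183217). DCN had 0, 0 and 2 counts in MDA231-LN libraries and 0 in all parental libraries, which is under the floor of 3 counts in each line. KERA and EPYC, related proteoglycan genes that lie on the LUM side of this pair, had 0 counts in every library. BGN, which encodes biglycan, on X from 153494980 to 153509546, had 0 counts in every library. A count of 0 allows up to 0.0526 CPM in MDA231-LN and 0.0590 CPM in parental cells, and only 7.13% of BGN's exonic bases lie inside another gene.

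**Figure D2:**
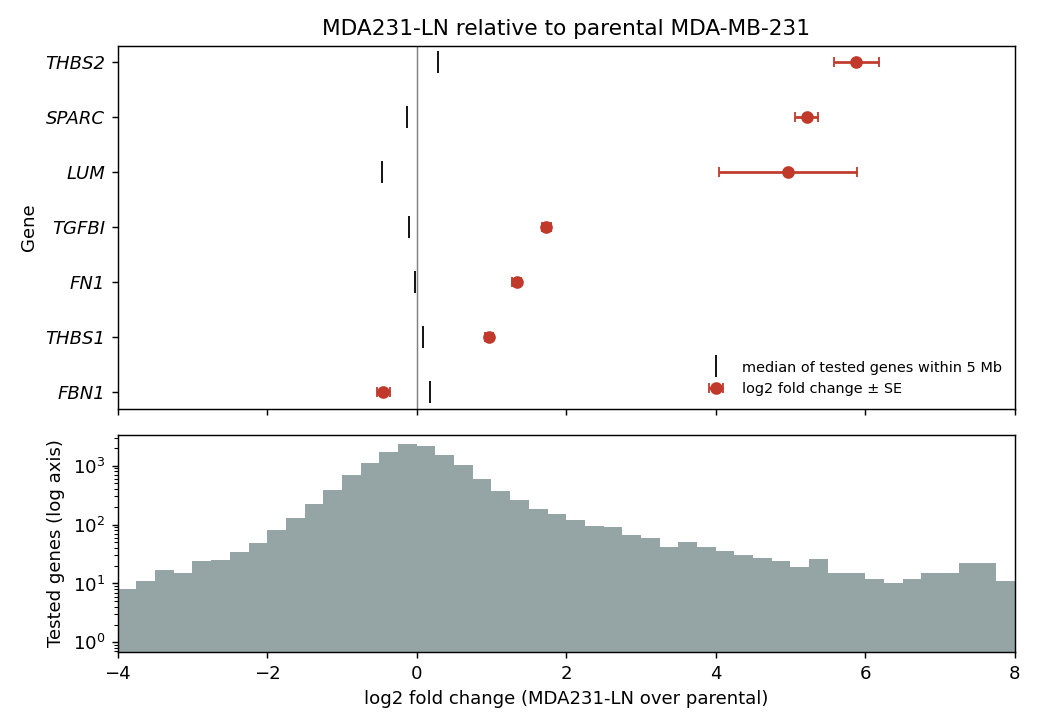
Top, log2 fold change (MDA231-LN over parental) of the 7 tested genes with its SE, beside the median of the tested genes that start within 5 Mb (black ticks). Bottom, the log2 fold changes of all 14176 tested genes that fall on the axis shown, on a logarithmic count axis. THBS2, SPARC and LUM lie near 5 to 6, and FBN1 alone lies below 0.

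To set each change beside its chromosomal surroundings, the tested genes around it were used. The median log2 fold change of the genes that start within 5 Mb was -0.14 around SPARC (50 genes), 0.29 around THBS2 (23 genes), -0.11 around TGFBI (84 genes), -0.46 around LUM (40 genes), -0.02 around FN1 (51 genes) and 0.08 around THBS1 (80 genes). Around FBN1, on the same chromosome as THBS1, it was 0.18 (56 genes). Each of the 7 genes kept its direction after its neighbours' median was subtracted, with log2 differences of 5.35 for SPARC, 5.59 for THBS2, 1.84 for TGFBI, 5.42 for LUM, 1.35 for FN1, 0.89 for THBS1 and -0.63 for FBN1.

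Levels of different genes can be compared only per length, and the order of the genes was taken from CPM per kb of exonic sequence. Counts include intronic fragments, so this is an approximate scale. THBS1 led in both lines, with 101 ± 4.49 CPM per kb in MDA231-LN and 51.6 ± 2.00 CPM per kb in parental cells. TGFBI came next in MDA231-LN at 40.3 ± 0.846 CPM per kb, above FN1 at 29.2 ± 1.18. In parental cells TGFBI (12.1 ± 0.643 CPM per kb) and FN1 (11.6 ± 1.31) overlapped and did not differ beyond their spread. SPARC had rank 4 in MDA231-LN, at 8.84 ± 0.378 CPM per kb, and rank 5 in parental cells, at 0.238 ± 0.0440, where FBN1 was above it. THBS2 and FBN1 overlapped in MDA231-LN, at 2.22 ± 0.314 and 2.07 ± 0.179 CPM per kb, whereas in parental cells THBS2 was at 0.0358 ± 0.0247 and FBN1 at 2.82 ± 0.228. LUM, at 0.274 ± 0.0176 CPM per kb, and POSTN, at 0.0542 ± 0.0183, closed the order in MDA231-LN.

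The order depends on the length used for the overlapped genes. Per kb of exonic sequence outside other genes, THBS1 was at 485 ± 21.5 CPM per kb in MDA231-LN and 248 ± 9.60 in parental cells. On that scale THBS2 (11.5 ± 1.63 CPM per kb) had rank 4 in MDA231-LN, above SPARC (10.3 ± 0.441), and the libraries of this pair overlapped. In parental cells SPARC (0.278 ± 0.0514 CPM per kb) and THBS2 (0.185 ± 0.128) overlapped as well.

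**Figure D3:**
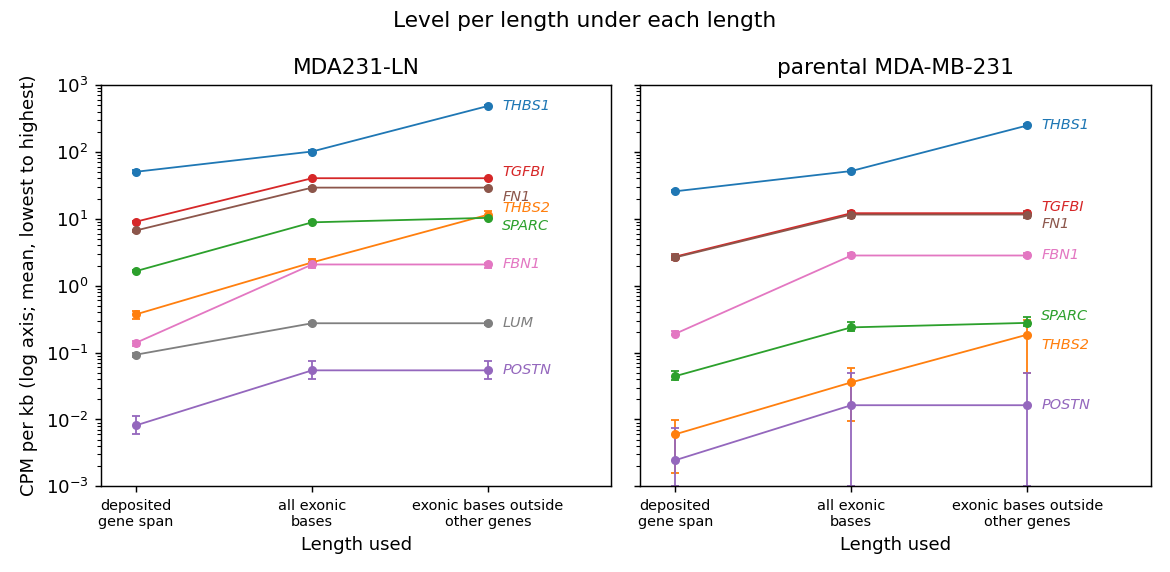
Mean CPM per kb, with the lowest and highest of 3 libraries, in MDA231-LN (left) and parental cells (right) for each gene with over 3 counts in the line, under 3 lengths: the deposited gene span, all exonic bases, and exonic bases outside other genes. Bars that reach the bottom axis end at 0. THBS1 leads under each length in both lines, and THBS2 passes SPARC in MDA231-LN under the last length.

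Summed over the 10 genes, counted fragments came to 1902, 1844 and 1769 CPM in MDA231-LN libraries, against 807, 778 and 858 CPM in parental libraries. Shares of that sum are shares of counted fragments and not levels, since they are not scaled by length and most exonic bases of THBS1 and THBS2 could not be counted. THBS1 made up 49.5% to 51.1% in MDA231-LN and 57.3% to 58.5% in parental cells. FN1 made up 27.3% to 27.9% in MDA231-LN and 23.2% to 26.2% in parental cells. TGFBI supplied 16.6% to 17.4% in MDA231-LN and 11.003% to 12.6% in parental cells. FBN1's part was 1.69% to 1.897% in MDA231-LN and 5.06% to 6.14% in parental cells. SPARC made up 2.16% to 2.42% in MDA231-LN and 0.118% to 0.179% in parental cells.

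Short motifs were searched in the promoters, on both strands. The RefSeq table (GRCh38.p14) held 8 of the 10 genes, and LUM and DCN were the others. The window was the 250 bases before the RefSeq start. The TEAD motif was searched as GGAATG, and 11.9% of all 35116 promoters held it in a window of this length. The AP-1 motif was searched as TGANTCA, which 6.57% held. The GC box was searched as GGGCGG, which 42.6% held. The TATA box was searched as TATAAA, which 10.7% held. Below are the windows of both thrombospondin genes, of which THBS2 was near the detection limit in parental cells and THBS1 was abundant, with FN1 as an abundant gene that rose and FBN1 as the gene that fell. THBS2 and FN1 are given by the longest stretch free of GENCODE 29 exons. Annotated exons cover the whole SPARC window, which is not printed, part of that of THBS2, and 161 bases in FN1, 93 in TGFBI, 76 in POSTN, 41 in BGN and 0 in THBS1 and FBN1. The window of FBN1 lies inside the gene's deposited span. The printed stretch of THBS2, with its marked matches, also lies inside that gene's deposited span and not upstream of it. Each is on the gene's strand, and capitals mark whole matches to any of the motifs in either direction.
THBS2, chr6:169253897-169253989, minus strand: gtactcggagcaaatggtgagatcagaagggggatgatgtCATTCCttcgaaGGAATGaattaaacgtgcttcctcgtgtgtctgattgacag
THBS1, chr15:39580829-39581078, plus strand: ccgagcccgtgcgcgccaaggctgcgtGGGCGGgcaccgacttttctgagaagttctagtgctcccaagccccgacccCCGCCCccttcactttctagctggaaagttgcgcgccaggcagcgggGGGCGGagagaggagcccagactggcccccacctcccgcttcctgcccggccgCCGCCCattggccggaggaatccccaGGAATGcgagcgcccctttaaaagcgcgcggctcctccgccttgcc
FN1, chr2:215436173-215436252, minus strand: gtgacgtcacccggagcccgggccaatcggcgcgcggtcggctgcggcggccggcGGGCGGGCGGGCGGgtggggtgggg
FBN1, chr15:48644971-48645220, minus strand: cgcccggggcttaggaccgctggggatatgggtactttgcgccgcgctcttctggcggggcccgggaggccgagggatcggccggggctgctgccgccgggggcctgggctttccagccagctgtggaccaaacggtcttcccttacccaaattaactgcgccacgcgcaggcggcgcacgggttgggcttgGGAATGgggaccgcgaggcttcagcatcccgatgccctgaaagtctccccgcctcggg

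Positions are counted back from the RefSeq start, at the first base of a match. The TEAD motif was found 1 time in SPARC (-17), 1 time in THBS1 (-46), 1 time in FBN1 (-58) and 2 times in THBS2, at -103 and -91 on opposite strands. It was not found in TGFBI, FN1, POSTN or BGN, so genes that rose stood on both sides. The GC box was found 6 times in FN1, some of them overlapping, 5 times in BGN, 4 times in THBS1 and 3 times in TGFBI, and was not found in SPARC, THBS2, POSTN or FBN1. The TATA box was found in THBS2 (-29) and POSTN (-29 and -182), and the AP-1 motif in POSTN alone (-220). The match in SPARC, the TATA box of POSTN at -29 and the GC box of BGN at -21 lie in annotated exon. So do the GC boxes of TGFBI at -66 and -16, and the one at -98 ends in exon. The TATA box of THBS2 and some GC boxes of FN1 are not wholly inside the printed stretches. Whether these lie in exon was not resolved. A match describes letters in a window and does not show that a factor binds there.

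The relatives of these genes moved in both directions. Of 22 other matricellular genes, 13 were tested, and 4 rose and 4 fell, with a median log2 fold change of -0.10 (mean 1.23, of the opposite sign) against a median of 0.02 over all tested genes. For these and the following lists, the shares called over all tested genes are 31.6% higher and 31.2% lower. SPOCK1, which encodes testican-1, a proteoglycan related to SPARC, had 39.6 ± 2.02 CPM in MDA231-LN and 0.157 ± 0.0282 CPM in parental cells, 2255 fragments against 8 (log2 fold change 7.91 ± 0.21; edgeR quasi-likelihood, adjusted p = 3.46e-21). SMOC1, another SPARC relative, had 1.75 ± 0.873 CPM in MDA231-LN and no counts in parental cells, at least 29.6-fold higher against a floor of 3 counts over the 3 parental libraries. CCN4, a WNT-induced secreted protein gene, had 60 counts in MDA231-LN and 5 in parental cells (log2 fold change 3.33 ± 0.70). TNN, which encodes a tenascin, averaged 0.548 ± 0.181 CPM in MDA231-LN and 1.82 ± 0.225 CPM in parental cells, a 3.31-fold fall. THBS3 and FSTL1 fell 2.62-fold and 2.44-fold, and over 90% of the exonic bases of each lie inside other genes. TNC, SPP1 and CCN5 had 0 counts, but all of their exonic bases lie inside other genes, so they were not measured. CCN1 and CCN2, abundant genes of the same family as CCN4, were picked after their values were seen. CCN1 averaged 663 ± 25.8 CPM in MDA231-LN and 748 ± 56.1 CPM in parental cells and fell only 1.13-fold (log2 fold change -0.17 ± 0.06; edgeR quasi-likelihood, adjusted p = 0.00812). CCN2 averaged 415 ± 10.2 CPM in MDA231-LN and 444 ± 19.9 CPM in parental cells and did not pass (edgeR quasi-likelihood, adjusted p = 0.104).

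Of 14 other small leucine-rich proteoglycan genes, 2 were tested, with a median log2 fold change of -0.13, and 8 had no counts in any library. Of those 8, ASPN, OMD, OGN, CHAD and ECM2 have all of their exonic bases inside other genes and were not measured, and PODN has 86.9% inside. KERA and EPYC have none inside another gene. TSKU, which encodes tsukushi, fell 3.09-fold to 16.3 ± 1.07 CPM in MDA231-LN, against 50.3 ± 1.26 CPM in parental cells (log2 fold change -1.63 ± 0.09; edgeR quasi-likelihood, adjusted p = 2.32e-14). PODNL1, a podocan relative, had 1.08 ± 0.398 CPM in MDA231-LN and 0.410 ± 0.148 CPM in parental cells. Its rise (log2 fold change 1.37 ± 0.53; edgeR quasi-likelihood, adjusted p = 0.0264) was lost when any 1 of 4 libraries was left out: MDA231-LN replicate 1 or 2, or parental replicate 2 or 3.

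Among 20 tested partners of fibronectin and fibrillin networks, out of 28 listed, 5 rose and 8 fell, with a median log2 fold change of -0.33. TGM2, a transglutaminase that crosslinks fibronectin, fell 4.70-fold to 483 ± 10.998 CPM in MDA231-LN, against 2271 ± 101 CPM in parental cells (log2 fold change -2.23 ± 0.05; edgeR quasi-likelihood, adjusted p = 2.44e-22). The lysyl oxidase family gene LOXL2 fell 4.48-fold, to 130 ± 6.24 CPM in MDA231-LN, against 581 ± 35.9 CPM in parental cells. EFEMP1, which encodes fibulin-3, fell 2.10-fold. FBN2, which encodes fibrillin-2, had 35 counts in MDA231-LN and 0 in parental cells, at least 10.4-fold higher against the same floor. FBLN5, which encodes fibulin-5, an elastic fiber protein, rose 2.24-fold, with 3.64 ± 0.485 CPM in MDA231-LN and 1.61 ± 0.415 CPM in parental cells. Summed over the list, expression was 987 to 998 CPM in MDA231-LN and 3262 to 3544 CPM in parental cells. TGM2 and LOXL2 carried most of that sum in both lines, so it does not describe the list as a whole.

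Among receptors that bind the 10 proteins, 15 of 23 listed were tested, and 5 rose and 7 fell, with a median log2 fold change of -0.15. SDC1, which encodes the heparan sulfate proteoglycan syndecan-1, fell 2.30-fold, to 80.5 ± 4.69 CPM in MDA231-LN, against 185 ± 10.1 CPM in parental cells. STAB2, a scavenger receptor gene, had 50 counts in MDA231-LN and 5 in parental cells (log2 fold change 3.08 ± 0.71; edgeR quasi-likelihood, adjusted p = 0.000489). ITGA5 and TLR4, with all their exonic bases inside other genes, and ITGB3, with 98.8%, had 0 counts and were not measured.

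Of 20 enzymes that build the chondroitin or dermatan sulfate chains carried by decorin and biglycan, 19 were tested, and 3 rose and 11 fell, with a median log2 fold change of -0.23. The chondroitin sulfotransferase genes CHST11 and CHST3 fell 2.57-fold and 2.37-fold. CHST11 averaged 105.04 ± 4.20 CPM in MDA231-LN and 270 ± 8.39 CPM in parental cells, and CHST3 51.5 ± 2.32 CPM in MDA231-LN and 122 ± 3.34 CPM in parental cells. CHSY3, a chondroitin synthase gene, fell 9.03-fold, to 1.28 ± 0.462 CPM in MDA231-LN, against 11.6 ± 0.331 CPM in parental cells. The risers changed less than 2-fold, among them the uronyl sulfotransferase gene UST (1.503-fold) and CSGALNACT2 (1.19-fold). With upper-quartile scaling, 5 genes of this list rose. SPOCK1, SMOC1, CCN4, PODNL1, FBN2 and STAB2 reached the filter on low counts through MDA231-LN libraries alone.

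**Figure D4:**
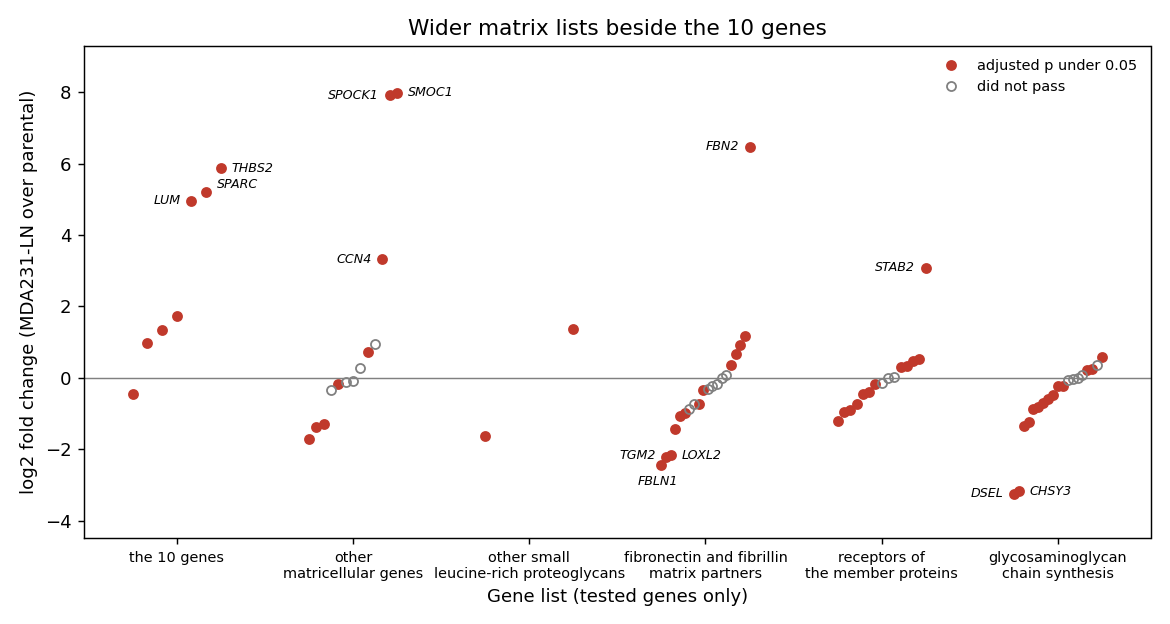
Log2 fold change (MDA231-LN over parental) of each tested gene in the 10 genes and in 5 wider lists; filled points passed at an adjusted p under 0.05. The fitted values of SMOC1 and FBN2, which had no parental counts, depend on a small prior count. Of the 7 tested genes among the 10, only FBN1 lies below 0. Each wider list also holds genes on both sides, with only 2 tested among the other small leucine-rich proteoglycans.

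Since these genes are also fibroblast products, markers of other cell types were set beside them. Of 11 fibroblast markers, 4 were tested, 1 rose and 2 fell, and the summed level was 99.1 to 121 CPM in MDA231-LN and 371 to 482 CPM in parental cells. S100A4 carried most of that sum, averaging 87.6 ± 13.7 CPM in MDA231-LN and 400 ± 58.4 CPM in parental cells. COL1A1 averaged 15.4 ± 2.15 CPM in MDA231-LN and 12.3 ± 2.84 CPM in parental cells and did not pass (edgeR quasi-likelihood, adjusted p = 0.0636). COL1A2, with 21 counts in MDA231-LN and 6 in parental cells, and FAP, with 4 and 0, were not tested. COL3A1, a fibrillar collagen gene, rose, with 88 counts in MDA231-LN and 1 in parental cells, a ratio of 78.5 (exact 95% interval 13.7 to 3136), and it reached the filter on low counts through MDA231-LN alone. PDGFRB fell, averaging 2.89 CPM in MDA231-LN and 6.68 CPM in parental cells. PDGFRA and DPT had no counts, with 69.4% and 76.8% of their exonic bases inside other genes, and THY1 and ACTA2, with all of them inside, were not measured. Of 7 endothelial markers 3 were tested, none rose and 2 fell, and they summed to 10.2 to 11.7 CPM in MDA231-LN and 9.95 to 15.1 CPM in parental cells. Of 6 leukocyte markers 2 were tested and neither passed; CD3E had no counts, and the sum was 3.49 to 5.43 CPM in MDA231-LN and 2.84 to 4.12 CPM in parental cells. The 4 adipocyte markers summed to at most 0.617 CPM in MDA231-LN and 0.183 CPM in parental cells, with ADIPOQ and LEP at 0. Of ADIPOQ's exonic bases 46.9% lie inside other genes, and FABP4, with all of them inside, was not measured. The part of other cells in the changes of the 10 genes was not tested beyond these levels. Of 9 luminal epithelial markers 7 were tested, 3 rose and 1 fell, and their sum, nearly all of it the keratins KRT8, KRT18 and KRT19, was 1179 to 1241 CPM in MDA231-LN and 1236 to 1336 CPM in parental cells. FOXA1, a luminal transcription factor gene, averaged 2.63 ± 0.841 CPM in MDA231-LN and 0.179 ± 0.0677 CPM in parental cells (14.3-fold; edgeR quasi-likelihood, adjusted p = 4.11e-07). ESR1, the estrogen receptor gene, averaged 0.951 ± 0.248 CPM in MDA231-LN and 0.164 ± 0.231 CPM in parental cells (5.28-fold; edgeR quasi-likelihood, adjusted p = 0.00403). Both reached the filter through MDA231-LN alone. KRT19 rose 1.31-fold and KRT18 fell 1.26-fold. GATA3 (log2 fold change -0.19), EPCAM (0.22) and KRT8 (-0.07) did not pass. PGR, with 0 counts in MDA231-LN and 1 in parental cells, was not tested.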

How the data were processed

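Total RNA of 3 MDA231-LN and 3 parental libraries was read from both ends, with 150 bases stated in the labels. The submitters' processing notes name STAR, featureCounts, Subread, DESeq2 and GRCh38; versions of STAR and DESeq2 are not given in the sources used here. The authors deposited 1 table of raw gene counts, made with featureCounts 2.0.1 on Ensembl release 105, per the file headers. By that command, whole gene spans were counted, introns included, strand was ignored, and fragments touching more than 1 gene were left out. Genes lying inside others can therefore be undercounted.

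Symbols were matched for 61369 of 61541 genes. Exonic lengths were the merged exons of GENCODE 29 (GRCh38), found for 58366 genes. An exonic base was called overlapped when it lay in the span of another deposited gene. Counts were tested with edgeR 4.0.16 in R 4.3.3 (quasi-likelihood, TMM, filterByExpr with a cutoff of 0.548 CPM in 3 libraries), adjusted over 14176 genes, MDA231-LN over parental. The common biological coefficient of variation was 0.0691. Counting intervals are exact conditional 95% intervals on TMM-scaled library sizes, and floors are 3 counts over the 3 libraries of a line; neither covers more than counting error, because fragments without molecular identifiers can be copies of one molecule.

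The 10 genes and the lists were chosen with earlier results of these data known. From each wider list the text names up to 3 genes in each direction with the smallest adjusted p among those called and changed at least 2-fold, or, where none changed that much, up to 2 of the called genes with the smallest adjusted p. CCN1, CCN2, the cell type markers named singly and genes named as not measured were added after their values were seen. The result of each test was recomputed with upper-quartile or RLE scaling, with every gene that had a count, with genes of at least 1 CPM in 3 libraries, with a block for replicate number, without each library, and with DESeq2 1.42.0 or limma-voom (limma 3.58.1). Stricter calls used an adjusted p under 0.01 or glmTreat against 1.5-fold. Fold changes were also taken minus the median of genes within 5 Mb, and counts without genes that had over 50% of exonic bases inside others. Measuring levels per exonic base outside other genes was chosen after seeing the data. Tables and figures were made in Python 3.11.15 with pandas 2.3.3, numpy 2.4.6, matplotlib 3.10.9 and scipy 1.17.1.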

Additional observations from a re-analysis of the deposited data

How the results depend on the processing

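The 7 tested genes kept their direction and their call under RLE and upper-quartile scaling, no filter, the replicate block, each left-out library, DESeq2 and limma-voom, except that a filter of 1 CPM in 3 libraries left LUM untested. Under glmTreat against 1.5-fold, 0 of the 10 genes were lower. With genes over 50% inside others left out (THBS1 and THBS2), 4 were higher. The median of all tested genes moved to 0.13 with upper-quartile scaling, where FBN1 was at -0.33 and THBS1 at 1.08, and to 0.15 with no filter. Leaving out each library in turn gave log2 fold changes of 5.12 to 5.36 for SPARC, 5.45 to 6.45 for THBS2, 4.44 to 6.92 for LUM, 1.69 to 1.76 for TGFBI, 1.26 to 1.42 for FN1, 0.93 to 0.99 for THBS1 and -0.49 to -0.38 for FBN1. Minus the median of neighbours, THBS1 was 0.89, TGFBI 1.84, LUM 5.42 and FBN1 -0.63. By exonic bases outside other genes, SPARC had rank 5 and THBS2 rank 4 in MDA231-LN.

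Same-numbered libraries did not deviate together (correlations -0.00394, 0.00241 and -0.0526), so the numbers were not taken as pairs. With the replicate number as a block, SPARC was 5.22, THBS2 5.87, LUM 4.97, TGFBI 1.74, FN1 1.34, THBS1 0.97 and FBN1 -0.45, and the block lost the call of PODNL1, leaving 0 other small proteoglycans higher. That count, 1 by the edgeR test used, was 2 with no filter, 0 with the 1 CPM filter, an adjusted p under 0.01 or glmTreat, and 0 to 1 over left-out libraries. Other matricellular genes higher, 4 by the edgeR test used, numbered 2 with the 1 CPM filter and 3 without parental replicate 1 or under glmTreat. Those lower, 4 by the edgeR test used, numbered 3 with upper-quartile scaling, without MDA231-LN replicate 2 or under glmTreat. Without parental replicate 3 they numbered 5. Matrix partners lower, 8 by the edgeR test used, numbered 7 with upper-quartile scaling, 9 with limma-voom and 8 to 10 over left-out libraries. Matrix partners higher, 5 by that test, numbered 6 with no filter and 4 to 5 over left-out libraries. They numbered 4 with the 1 CPM filter, the block or an adjusted p under 0.01. Under glmTreat, 3 matrix partners, 1 receptor and 0 chain enzymes were higher, and 6 matrix partners, 4 receptors and 6 chain enzymes lower. Receptors higher, 5 by the edgeR test used, numbered 4 with the 1 CPM filter, DESeq2 or an adjusted p under 0.01, and 4 to 5 over left-out libraries. Among them VLDLR passed narrowly (edgeR quasi-likelihood, adjusted p = 0.0480), and its lines overlapped. Receptors lower numbered 6 with upper-quartile scaling. With upper-quartile scaling 5 chain enzymes were higher. The causes were not tested, beyond glmTreat asking for a larger change and the filters changing which genes were tested. With 3 libraries per line and 17 or fewer counts per library in a line, levels of LUM, POSTN and DCN are limited by depth.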
